A study of Mus musculus with 6 samples.

Results

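The mitochondrial ribosomal proteins are the nuclear-encoded proteins of the ribosome inside mitochondria. They were taken here as the protein-coding genes whose symbol begins with Mrpl (large subunit) or Mrps (small subunit) followed by a number, without pseudogenes. The rule gave 78 of the 27179 gene IDs counted, 49 of the large and 29 of the small subunit, spread over 17 chromosomes. Expression had been measured by RNA-seq in satellite cells, the resident stem cells of muscle, which were sorted from WT mice of the C57Bl/6N background given high-fat food (the high-fat diet, 3 libraries) or standard food (chow, 3 libraries). The series compared cells of obese and lean mice. The labels give no age, sex, length of feeding or number of animals per library, and they do not tie a library to an animal. A p-value here therefore measures how these libraries spread, part of which may be technical. Values listed in threes are for libraries 1, 2 and 3 of a diet.

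Mitochondrial ribosomes translate the few messenger RNAs of the mitochondrial genome, all of which encode subunits of the respiratory chain and the ATP synthase. The proteins of these ribosomes are made in the cytosol and imported, and they assemble on ribosomal RNAs transcribed from mitochondrial DNA. Part of the family descends from bacterial ribosomal proteins, and the rest was gained in the mitochondrial lineage. Quiescent satellite cells carry few mitochondria, and mitochondrial content grows when they are activated.

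Total counts ran from 14930394 to 18217818 per library. Markers of satellite cells had reads for 10 of 10 genes and together made up 4214 to 5442 CPM on the high-fat diet against 4492 to 5402 CPM on chow. CPM are counts relative to the library total after TMM scaling (trimmed mean of M values). The 6 fibro-adipogenic markers came to 744 to 991 CPM against 699 to 832 CPM, and immune markers, with Adgre1 and Cd3e at 0 reads in every library, to at most 31.4 CPM in any library. Endothelial markers made up 219 to 332 CPM against 228 to 292 CPM, and those of smooth muscle and pericytes 54.4 to 135 CPM against 86.4 to 150.2 CPM. Markers of mature myofibres reached at most 32.3 CPM, of Schwann cells 36.3 CPM and of adipocytes 6.49 CPM, the last with Plin1 and Lep at 0. Their part in the results was not tested. In bulk samples fewer cells of a type and less RNA per cell cannot be told apart. High-fat diet library 1 and chow library 3 had the fewest genes detected (13879 and 13655, beside 14939 to 15467 in the other 4) and the most tested genes at 0 reads (8.07% and 8.05%, beside 2.01% to 4.21%), and the count at p under 0.05, the calls and the median without them are given beside those results.

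No member passed the test between the diets in satellite cells. By CPM the median tested member lay at percentile 28.3 of all genes tested, and per length of exon at percentile 47.2. The 78 genes together took 0.0587%, 0.0423% and 0.0472% of all counts on the high-fat diet, against 0.058%, 0.0422% and 0.0583% on chow. The means were 0.0494% ± 0.00842 and 0.0528% ± 0.00923 (SD, n = 3 libraries per diet). The diets overlapped, and in each of them the lowest library was library 2. On the TMM scale the summed level was 493 ± 67.5 CPM on the high-fat diet against 531 ± 97.5 CPM on chow, a difference of -37.8 CPM that was smaller than either SD.

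**Figure D1:**
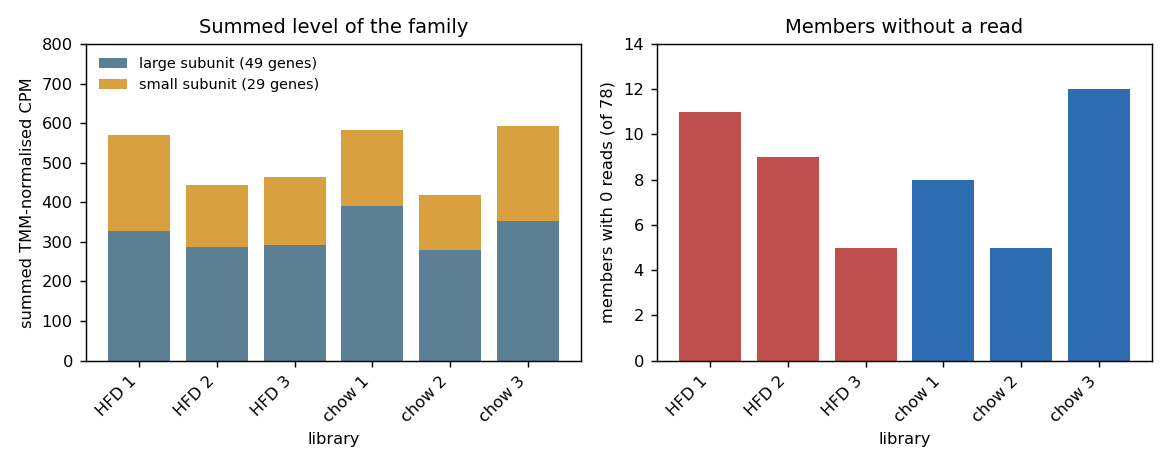
Left, summed TMM-normalised CPM (y axis) of the large and small subunit genes in each library (x axis), as stacked bars. Right, the number of the 78 members with 0 reads in each library. The summed level lay between 418 and 593 CPM and the diets overlapped, and between 5 and 12 members had no read.

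The large subunit genes summed to 302.3 ± 22.6 CPM on the high-fat diet against 341 ± 56.4 CPM on chow. The small subunit genes summed to 191 ± 44.9 and 190 ± 50.99 CPM. The ratio of large to small was 1.35, 1.80 and 1.71 on the high-fat diet against 2.05, 2.01 and 1.46 on chow, so that the diets overlapped here as well. These sums go by symbol, although Mrps30 and Mrps18a lie in the large subunit. Counted there, a choice made after seeing the data, the ratios were 1.47, 2.08 and 1.86 against 2.42, 2.18 and 1.90, and the diets still overlapped.

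In edgeR's quasi-likelihood test (genes kept by filterByExpr, diet as the only factor, Benjamini-Hochberg adjustment over 13202 genes) 72 of the 78 members were tested and 0 passed an adjusted p of 0.05. Among all genes tested 34, or 0.258%, passed, 0.0909% higher and 0.167% lower on the high-fat diet. The lowest adjusted p of a member was 0.439. An unadjusted p under 0.05 was found for 5 members (6.94%), all lower on the high-fat diet, beside 7.65% of all genes (3.95% lower and 3.7% higher). The diets were fully apart, with all 3 libraries of a diet on the same side, for 10 members (13.9%), 7 lower and 3 higher, beside 15.3% of all genes tested (7.87% lower and 7.42% higher). The count at an unadjusted p under 0.05 depended on the setting. It was 6 of 72 (8.33%), with Mrps25 added as higher, under each of 3 other scalings, beside 7.54% to 7.69% of all genes. With DESeq2 it was 8 of 72 (11.1%), 2 of them higher, beside 9.2% of all genes. It was 2 of 72 (2.78%) with limma-voom, beside 9.13% of all genes, and also 2 of 72 with the replicate block, beside 8.03%. With 1 library left out it was 3 of 74 without high-fat diet library 2, 2 of them higher, beside 6.66% of all genes. It was also 3 of 74 without chow library 2, beside 7.61%, and 2 of 74 (2.7%) without chow library 3, beside 6.85%. Without high-fat diet library 1 it was 6 of 74 (8.11%), 1 of them higher, beside 6.79%. It was 4 of 74 (5.41%) without high-fat diet library 3, beside 8.31%. Without chow library 1 it was also 4 of 74, 1 of them higher, beside 7.16%. Without both high-fat diet library 1 and chow library 3, 3 of 73 (4.11%) had such a p, 1 of them higher, beside 7.04% of all genes.

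DESeq2 called 1 member, Mrpl27, beside 1.51% of the genes for which it gave an adjusted p, and limma-voom called 0 members, beside 0.75% of all genes. The median log2 fold change of the 72 members was -0.12, where all genes had -0.01, and 39 of 72 were negative (54.2%, beside 50.5% of all genes). Without high-fat diet library 1 and chow library 3 the median was -0.16 over 73 members, and 0 passed. It was 0.01 without high-fat diet library 3 and 0.02 without chow library 1.

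**Figure D2:**
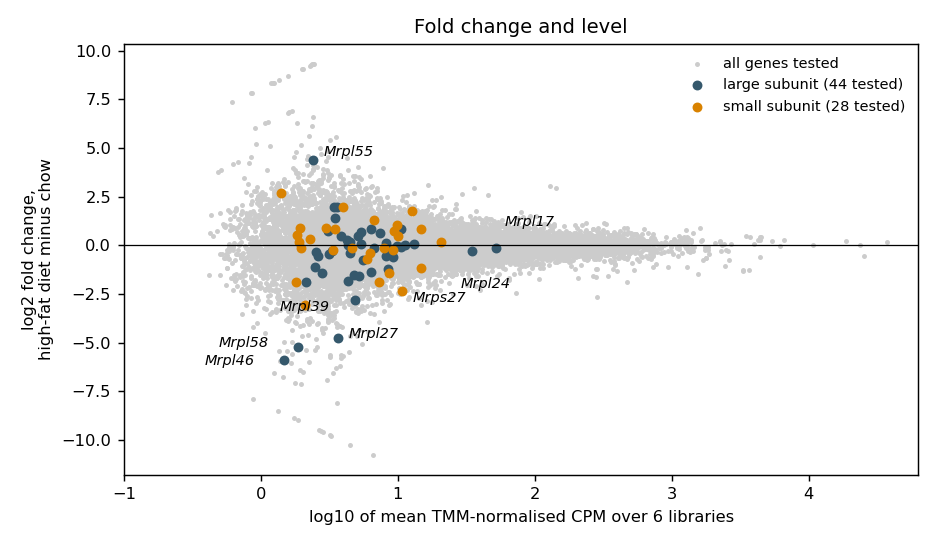
Log2 fold change of high-fat diet minus chow (y axis) against the log10 of mean CPM over 6 libraries (x axis) for all 13202 genes tested (grey) and for the 72 tested members, coloured by subunit. The members lie on both sides of 0, and those with the largest values, Mrpl46 at -5.86 and Mrpl55 at 4.39, have low levels.

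The members spread more between libraries of the same diet than most genes did. The median coefficient of variation within a diet was 74.2% for the tested members, 43.1% for all genes tested 50.3% for the nuclear respiratory chain genes and 17.2% for the cytosolic ribosomal protein genes. The median biological coefficient of variation in edgeR was 106% for the members, 100.3% for the ribosome assembly genes, 89.2% for the mitochondrial translation factors and 62.2% for all genes. The values of 1 diet spanned 10-fold or more for 44 of the 72 members (61.1%), beside 33.4% of all genes tested. The median standard error of a member's log2 fold change was 1.32, beside 0.71 for all genes. The members were also less abundant, with a median of 5.02 CPM beside 13.0 CPM for all genes, and 36 of 72 lay under 5 CPM. Among genes of 10 CPM or more, the median biological coefficient of variation was 64.1% for 12 members and 36.1% for all genes. The median level in this class was 12.9 CPM for the members and 38.0 CPM for all genes, so the levels were not matched.

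Reads were absent in single libraries although other libraries of the same diet held many. Of 432 pairs of a tested member and a library, 30 (6.94%) had 0 reads, beside 4.64% of such pairs over all genes tested. In 20 of these 30 pairs another library of the same diet had 50 or more reads, which touched 17 members (23.6%), beside 12.3% of all genes tested. Mrpl16 had 0 CPM in chow library 3 and 1.95 and 10.4 CPM in chow libraries 1 and 2. In reads these were 0, 31 and 178. A count of 0 allows up to 3 reads, or 0.172 CPM in that library, so that this gap was wider than counting error.

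The most abundant members per length were Mrps6, Mrpl24, Mrpl52, Mrpl32 and Mrpl12. On the scale of CPM per kilobase of exon (RPKM), Mrps6, a small subunit protein with a bacterial counterpart, had 28.3 ± 4.23 on the high-fat diet against 24.8 ± 8.72 on chow (SD, n = 3 libraries per diet). Mrpl24, a large subunit protein with a bacterial counterpart, had 23.2 ± 8.33 and 28.7 ± 7.74 RPKM. Mrpl52, a mitochondria-specific protein of the large subunit, had 17.6 ± 7.38 and 20.01 ± 18.4 RPKM. Mrpl32, whose maturation depends on the m-AAA protease, had 14.9 ± 12.8 and 14.5 ± 4.31 RPKM, and Mrpl12 13.8 ± 5.61 and 7.74 ± 5.45 RPKM. Neighbours in this order did not differ beyond these spreads. Of the 780 exon bases of Mrps6, 285 are shared with Gm49711 on the same strand. The exons of Mrps6 also overlap those of Slc5a3, which stood at 191 to 384 CPM, so the Mrps6 reads are uncertain. Mrpl24 shares 372 exon bases with Rrnad1, Mrps27 shares 417 with 6430562O15Rik and Mrps30 shares 601 with B430218F22Rik, each on the opposite strand, which makes their reads uncertain too.

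The least abundant tested members per length were Mrpl1 (0.59 RPKM over the 6 libraries), Mrpl15 (0.628 RPKM) and Mrpl35 (0.713 RPKM), all large subunit proteins with bacterial counterparts. The median member had 4.47 RPKM, beside 4.96 RPKM for all genes tested. In plain read numbers Mrpl17, which was named after its values were seen, was the most abundant member in 5 of 6 libraries, with 63.9, 32.2 and 52.0 CPM on the high-fat diet against 61.0, 28.0 and 73.0 CPM on chow. Its annotated exons are 7017 bases long, and its level per length was 7.37 RPKM, the 15th highest of 72.

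For 6 members too few libraries reached the minimum count of the filter, so that they were not tested. Mrpl36, the counterpart of a zinc-binding bacterial protein, had 0 reads in all 6 libraries. Mrpl14 had 85, 1 and 3 reads on the high-fat diet against 0, 0 and 8 on chow. Mrpl22 had 73, 0 and 21 reads on the high-fat diet against 0 in each chow library. Mrpl44, which carries a ribonuclease-like fold, had 147 reads in high-fat diet library 1, 5 in chow library 2 and 0 elsewhere. Mrpl47 had 67 reads in high-fat diet library 2 and 97 and 6 in chow libraries 1 and 2. Mrps36, which is also known as a component of the 2-oxoglutarate dehydrogenase complex, had 7, 5 and 10 reads on the high-fat diet against 0, 13 and 188 on chow. In all of these genes but Mrpl36, a library with 67 or more reads stood beside another of the same diet with 1 or 0.

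Among the large subunit genes, 44 were tested, 18 had positive and 26 negative log2 fold changes, and the median was -0.16. An unadjusted p under 0.05 was reached by 4 of them (9.09%, beside 7.65% of all genes), and the diets did not overlap for 7 (15.9%, beside 15.3%). Mrpl27, the counterpart of the bacterial protein L27 that lies near the peptidyl transferase centre, had the smallest p of the family. It stood at 0.195, 0.064 and 0.485 CPM on the high-fat diet against 5.27, 1.11 and 14.7 CPM on chow. These were 3, 1 and 9 reads against 84, 19 and 256. All high-fat diet libraries lay below all chow libraries, and the chow values themselves spanned more than 10-fold. The log2 fold change was -4.77 (SE 1.72, adjusted p = 0.439 in edgeR). It was -4.82 with an adjusted p of 0.0335 in DESeq2, and over all alternatives the adjusted p ran from 0.0335 to 0.882. Without high-fat diet library 3 the log2 fold change was -5.68, and without chow library 3 it was -3.64. The exons of Mrpl27 share 72 bases with Eme1 on the opposite strand, which stood at 3.83 CPM or less in every library.

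Mrpl46, a mitochondria-specific protein of the central protuberance, had 2, 0 and 0 reads on the high-fat diet against 97, 25 and 20 on chow. Its level was 0.13 CPM in high-fat diet library 1 and 6.09, 1.46 and 1.15 CPM in the chow libraries, so that the diets did not overlap. The summed reads gave a ratio of chow to high-fat diet of 69.7, with an exact binomial 95% interval from 18.9 to 581 that covers counting error only. The edgeR log2 fold change was -5.86 (SE 2.48, adjusted p = 0.579). It was -8.62 without high-fat diet library 1, which held all reads of that diet, and -4.71 without chow library 1.

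Mrpl58, a peptidyl-tRNA hydrolase built into the large subunit that can release stalled peptides, had 0, 0 and 5 reads on the high-fat diet. In the chow libraries it had 42, 31 and 113 reads, or 2.64, 1.81 and 6.49 CPM. The diets did not overlap, and the log2 fold change was -5.20 (SE 2.30, adjusted p = 0.628 in edgeR). It was -8.90 without high-fat diet library 3, which held all reads of that diet, and -4.49 without chow library 3. Mrpl39, a mitochondria-specific protein, stood at 1.69, 0.64 and 1.35 CPM on the high-fat diet against 3.14, 5.07 and 17.5 CPM on chow (log2 fold change -2.80, SE 1.27, adjusted p = 0.646). Without chow library 3 it was -1.74, and the other chow libraries also lay above all high-fat diet values.

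Mrpl20, which in bacteria takes part in early assembly of the large subunit, had 6.24, 6.78 and 2.16 CPM on the high-fat diet against 18.8, 8.69 and 8.27 CPM on chow. The diets did not overlap, and the adjusted p was 0.874 in edgeR. In the other direction, Mrpl55 had 1.24, 1.34 and 11.2 CPM on the high-fat diet against 0, 0.35 and 0.287 CPM on chow (log2 fold change 4.39, SE 2.07, adjusted p = 0.659). Its high mean came from high-fat diet library 3, with 208 of the 248 reads of that diet, and without it the log2 fold change was 2.56.

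The stalk proteins recruit translation factors to the ribosome. Mrpl12, a stalk protein that is also known to bind the mitochondrial RNA polymerase, had 19.2, 13.1 and 8.20 CPM on the high-fat diet against 13.5, 3.09 and 6.20 CPM on chow (adjusted p = 0.939). Mrpl10, which holds the stalk, had 7.48, 1.85 and 8.68 CPM and 5.46, 5.83 and 1.55 CPM (adjusted p = 0.999). Mrpl45, which anchors the ribosome to the inner membrane near the peptide exit, had 7.28, 3.20 and 2.00 CPM on the high-fat diet against 9.23, 5.13 and 6.55 CPM on chow (adjusted p = 0.989). The diets overlapped for all 3 genes. Mrpl12 shares 200 exon bases with Gm16755 and Mrpl10 shares 240 with Gm11574, each on the opposite strand, so that their reads are uncertain.

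Among the small subunit genes, 28 were tested, 15 had positive and 13 negative log2 fold changes, and the median was 0.18. Of these, 1 gene, Mrps27, had an unadjusted p under 0.05 (3.57%, beside 7.65% of all genes), and Mrps25 had 0.0503. The diets did not overlap for 3 genes (10.7%, beside 15.3%). Mrps27, a pentatricopeptide repeat protein, had 6.63, 1.85 and 2.21 CPM on the high-fat diet against 10.5, 3.21 and 40.2 CPM on chow. The diets overlapped, and chow library 3 held 700 of the 922 chow reads. The log2 fold change was -2.33 (SE 0.96, adjusted p = 0.564), and across fits with 1 library left out it ran from -3.13 to -0.94.

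Mrps7, a bacterial-type protein of the small subunit head, did not overlap between the diets, with 19.3, 14.6 and 23.4 CPM on the high-fat diet against 13.4, 9.27 and 8.90 CPM on chow. Its log2 fold change was 0.86 (SE 0.57, adjusted p = 0.858), and it stayed between 0.69 and 1.08 in the fits with 1 library left out. Mrps7 shares 119 exon bases with Mif4gd on the opposite strand. Mrps25 had 38.0, 3.65 and 16.9 CPM on the high-fat diet against 8.92, 4.26 and 4.02 CPM on chow (log2 fold change 1.77, SE 0.82, adjusted p = 0.652). It was 0.85 without high-fat diet library 1 and 0.65 without that library and chow library 3. Of its exons 4590 bases are shared with Nr2c2 on the opposite strand, which had 33.8 to 57.6 CPM, so that the Mrps25 reads are uncertain. Mrps23 had 14.6, 19.1 and 6.10 CPM on the high-fat diet against 6.78, 6.24 and 6.14 CPM on chow (adjusted p = 0.886).

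Mrps28 had 5.53, 1.02 and 2.86 CPM on the high-fat diet against 20.4, 9.21 and 4.71 CPM on chow (adjusted p = 0.743). Mrps30, which despite its symbol lies in the large subunit, had 7.35, 11.6 and 8.52 CPM and 20.8, 7.40 and 33.0 CPM (log2 fold change -1.15, SE 0.66, adjusted p = 0.768). It was -0.47 without high-fat diet library 1 and chow library 3. Mrps12, the counterpart of the bacterial decoding-centre protein S12, had 0.39, 0 and 0.917 CPM on the high-fat diet against 6.59, 4.61 and 0 CPM on chow (adjusted p = 0.894). For each of these the diets overlapped.

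**Figure D3:**
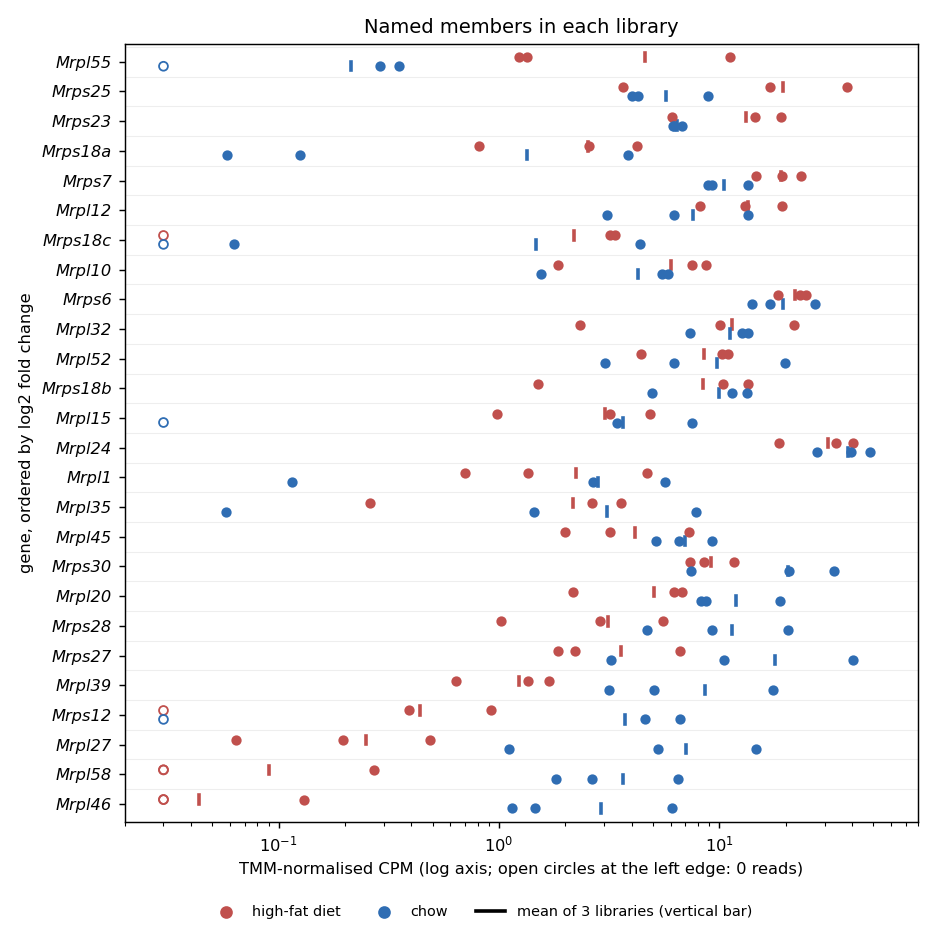
TMM-normalised CPM (x axis, log scale) of 26 named members (y axis, ordered by log2 fold change) in each high-fat diet library (red) and chow library (blue), with the mean of 3 libraries as a vertical bar and 0 reads as open circles at the left edge, where equal points lie on each other. Mrpl27, Mrpl46, Mrpl58, Mrpl39 and Mrpl20 lie apart between the diets with the chow values higher, and Mrps7 and Mrpl55 with the chow values lower.

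The 3 Mrps18 genes are paralogs of a bacterial S18 protein, of which Mrps18c is the closest counterpart and Mrps18a sits in the large subunit. Mrps18b was the most abundant of them per length, at 8.51 RPKM over the 6 libraries, beside 1.91 RPKM for Mrps18a and 2.27 RPKM for Mrps18c. Of the 1078 exon bases of Mrps18b, 637 are shared with Gm16279 on the opposite strand. Mrps18c shares 164 of its 804 with Gm43511 on the same strand, so that the reads of both genes and this order are uncertain. Mrps18b had 1.496, 13.4 and 10.4 CPM on the high-fat diet against 13.4, 4.96 and 11.4 CPM on chow. Mrps18a had 4.23, 2.56 and 0.809 CPM on the high-fat diet against 0.126, 0.0583 and 3.85 CPM on chow. Mrps18c had 3.19, 0 and 3.34 CPM and 0.0628, 4.37 and 0 CPM. Each of the 3 overlapped between the diets, with adjusted p-values between 0.999 and 1.00 in edgeR.

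Members were also counted by whether they were listed with a bacterial counterpart. Mrps18a and Mrps18b, although paralogs of the S18 protein, were counted as without. Of the 42 tested members with a counterpart, 24 were negative and the median was -0.13 on the log2 scale. Of the 30 without, 15 were negative and the median was 0.02. An unadjusted p under 0.05 was found for 1 (2.38%) and 4 (13.3%) genes, beside 7.65% of all genes. The diets did not overlap for 6 (14.3%) and 4 (13.3%), beside 15.3%. No test was made between these groups.

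Mrpl46 and Mrps11, a bacterial-type protein of the small subunit platform, are the only 2 members less than 100000 bases apart. They lie head to head on chromosome 7, with 42 bases between their starts in RefSeq (GRCm38.p6). Mrps11 had 0, 1.60 and 0.701 CPM on the high-fat diet against 1.76, 1.69 and 5.17 CPM on chow, so that its diets did not overlap either (log2 fold change -1.90, SE 1.99, adjusted p = 0.961 in edgeR). Mrps11 was named after its values were seen. Exons of Mrpl46 and Mrps11 in the GENCODE annotation share 173 bases on opposite strands, and the strand setting of the counting is not given in the sources used here, so part of their reads cannot be told apart.

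The start regions of Mrpl27, Mrps27 and Mrpl46 are shown because these genes had the smallest p-values of the family, and that of Mrps11 because it overlaps the Mrpl46 window. Each is the RefSeq window (GRCm38.p6) from 250 bases before to 50 bases after a start. Capitals mark matches on either strand to CCGGAAG (bound by ETS factors such as GABP), AAGATGGC (bound by YY1) or TATAAA (the TATA box), and the windows shown held no match to the NRF1 letters, GCGCA, any base, then GCGC.
Mrps11, chr7:78782881-78783180, plus strand: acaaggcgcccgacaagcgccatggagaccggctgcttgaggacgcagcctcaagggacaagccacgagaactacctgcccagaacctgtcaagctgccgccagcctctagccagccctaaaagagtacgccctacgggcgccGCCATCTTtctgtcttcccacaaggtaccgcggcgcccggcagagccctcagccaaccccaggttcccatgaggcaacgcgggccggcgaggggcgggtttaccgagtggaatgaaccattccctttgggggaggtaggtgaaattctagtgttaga
Mrpl46, chr7:78783040-78783339, minus strand: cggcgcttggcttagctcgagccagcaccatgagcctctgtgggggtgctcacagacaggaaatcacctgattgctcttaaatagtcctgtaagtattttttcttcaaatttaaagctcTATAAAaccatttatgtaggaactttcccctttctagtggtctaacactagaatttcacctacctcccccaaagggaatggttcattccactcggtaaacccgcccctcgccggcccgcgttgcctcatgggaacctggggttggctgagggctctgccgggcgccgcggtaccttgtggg
Mrpl27, chr11:94653541-94653840, plus strand: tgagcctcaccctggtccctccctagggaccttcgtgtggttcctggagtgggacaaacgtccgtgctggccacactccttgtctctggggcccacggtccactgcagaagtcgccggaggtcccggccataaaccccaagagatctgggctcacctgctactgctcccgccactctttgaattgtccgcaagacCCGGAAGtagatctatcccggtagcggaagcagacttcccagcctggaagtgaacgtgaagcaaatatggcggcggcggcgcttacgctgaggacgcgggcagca
Mrps27, chr13:99344536-99344835, plus strand: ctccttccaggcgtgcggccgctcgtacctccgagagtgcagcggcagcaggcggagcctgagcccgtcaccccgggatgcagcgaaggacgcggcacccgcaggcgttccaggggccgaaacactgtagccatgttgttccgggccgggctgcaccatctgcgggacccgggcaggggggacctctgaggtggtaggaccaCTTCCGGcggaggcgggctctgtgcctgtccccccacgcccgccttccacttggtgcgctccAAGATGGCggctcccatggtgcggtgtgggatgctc
The YY1 letters of the Mrps11 window lie outside the Mrpl46 window, which held only the TATA letters. A window was at hand for 69 of the 78 members. The ETS letters occurred for 26 of them (37.7%), beside 19.7% of tested protein-coding genes and 12.9% of all protein-coding genes with such windows. The YY1 letters occurred for 12 (17.4%, beside 5.36% and 3.57%) and the NRF1 letters for 13 (18.8%, beside 11.3% and 7.17%). The TATA letters TATAAA occurred for 5 members (7.25%), beside 8.89% of tested protein-coding genes and 14.8% of all. A match describes these letters only.

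The ribosome also holds proteins with other symbols, of which 5 were listed, and 0 of 5 passed. Dap3, a GTP-binding protein of the small subunit, had 21.6 CPM on the high-fat diet against 28.8 CPM on chow (adjusted p = 0.978), and Ptcd3 49.3 and 32.7 CPM (adjusted p = 0.876). Gadd45gip1, a large subunit protein, did not overlap between the diets, with 6.18, 4.86 and 7.23 CPM on the high-fat diet against 26.6, 11.5 and 9.25 CPM on chow (adjusted p = 0.720).

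The ribosomal RNAs that these proteins bind were far more abundant, and neither passed the test between the diets. The 12S RNA, mt-Rnr1, had 8259, 13940.2 and 10489 CPM on the high-fat diet against 10306, 11018 and 10801 CPM on chow (log2 fold change 0.03, SE 0.16, adjusted p = 1.00). The 16S RNA, mt-Rnr2, had 18321, 30019 and 22750.2 CPM and 23806, 23518 and 23865 CPM (log2 fold change -0.002, SE 0.14, adjusted p = 1.00). High-fat diet library 1 was the lowest and library 2 the highest for both. The libraries had been depleted of ribosomal RNA, and what that removed of these transcripts was not measured.

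Of 26 ribosome assembly genes 21 were tested and 0 passed. The log2 fold change was negative for 13 (61.9%, beside 50.5% of all genes), with a median of -0.03. Dhx30, a helicase needed for mitochondrial ribosome assembly, had 15.6, 18.3 and 27.0 CPM on the high-fat diet against 45.5, 46.5 and 43.1 CPM on chow. The diets did not overlap, and the log2 fold change was -1.15 (SE 0.37, adjusted p = 0.366). Noa1, a GTPase of small subunit assembly, had 15.8, 11.1 and 7.28 CPM on the high-fat diet against 1.13, 2.74 and 0.345 CPM on chow (log2 fold change 3.01, SE 1.12, adjusted p = 0.47). Mrm1, a methyltransferase of the 16S RNA, had 1.17, 0.448 and 0.162 CPM against 1.19, 1.92 and 10.6 CPM (adjusted p = 0.809). Noa1 was higher and Dhx30 and Mrm1 were lower on the high-fat diet in every library, and none of the 3 passed. Over the list the diets did not overlap for 4 of 21 genes (19.0%), beside 15.3% of all genes tested.

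Of 21 translation factors and related genes 19 were tested and 0 passed. The log2 fold change was negative for 14 (73.7%, beside 50.5% of all genes), with a median of -0.44. Tufm, the elongation factor that brings aminoacyl-tRNA to the ribosome, had 8.12 CPM on the high-fat diet against 9.16 CPM on chow (adjusted p = 1.00). Gfm1, the elongation factor of translocation, had 0.52, 10.5 and 3.40 CPM on the high-fat diet against 17.6, 17.4 and 13.4 CPM on chow (adjusted p = 0.729). Lrpprc, which stabilises mitochondrial messenger RNAs, had 24.9, 23.98 and 17.7 CPM against 41.7, 29.03 and 37.5 CPM (adjusted p = 0.757). Mtrf1, a release factor, had 0.128 CPM in high-fat diet library 2, 0 in the other two, and 3.83, 1.69 and 4.36 CPM on chow (adjusted p = 0.517). For Gfm1, Lrpprc and Mtrf1 the high-fat diet values all lay below the chow values. Over the list the diets did not overlap for 3 of 19 genes (15.8%), beside 15.3% of all genes tested.

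The regulators known to act on nuclear genes for mitochondria were counted as a list of 9, of which 0 passed. The log2 fold change was negative for 7 (77.8%, beside 50.5% of all genes). Nrf1, which activates many such genes, had 12.4, 21.9 and 17.4 CPM on the high-fat diet against 41.7, 24.3 and 33.1 CPM on chow (log2 fold change -0.94, SE 0.44, adjusted p = 0.654). Its diets did not overlap. Myc, a growth regulator that also acts on such genes, had 626, 726 and 743 CPM against 849, 784 and 978 CPM, again without overlap (adjusted p = 0.664). Pprc1, a coactivator related to Ppargc1a, had 208, 245 and 197 CPM against 282, 244 and 236 CPM (adjusted p = 0.899). Gabpa, the DNA-binding subunit of GABP, had 73.8 and 92.1 CPM (adjusted p = 0.937), and Ppargc1a, the coactivator of mitochondrial biogenesis, 2.38 and 4.65 CPM (adjusted p = 0.995). Over the list the diets did not overlap for 3 of 9 genes (33.3%), all lower, beside 15.3% of all genes tested (7.87% lower). In edgeR 0 of the 9 had an unadjusted p under 0.05, beside 7.65% of all genes.

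**Figure D4:**
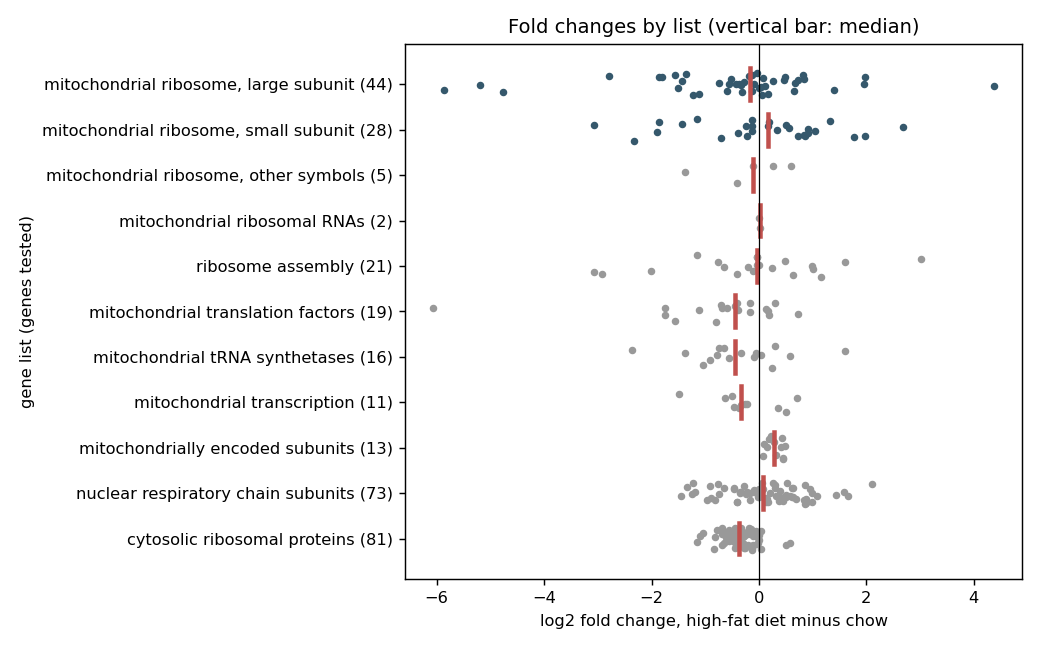
Log2 fold change of high-fat diet minus chow (x axis) of each tested gene (points) in the mitochondrial ribosomal proteins and related lists (y axis, with the number of genes tested), and the list's median (bar). The large and small subunit genes spread around medians of -0.16 and 0.18, and the cytosolic ribosomal proteins lie closer together around -0.38.

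The cytosolic ribosomal protein genes, taken by symbol (81 tested), had a median of -0.38 on the log2 scale, 75 being negative and 6 positive, and the diets did not overlap for 34 (42.0%), all lower, beside 7.87% of all genes tested. Rplp0, the stalk protein of the cytosolic ribosome, had the smallest p of that list, with 305, 280.4 and 251 CPM against 551, 439.7 and 454 CPM (log2 fold change -0.79, SE 0.17, adjusted p = 0.0948). In the mitochondrial family 39 of 72 were negative. Its diets did not overlap for 10 genes (13.9%), 7 of them lower on the high-fat diet, beside 15.3% of all genes tested. In edgeR 0 genes of either family passed. An unadjusted p under 0.05 was found for 22 of 81 cytosolic (27.2%) and 5 of 72 mitochondrial genes (6.94%), all lower, beside 7.65% of all genes. DESeq2 called 3 of 81 and 1 of 72, beside 1.51% of the genes for which it gave an adjusted p. The median level was 96.5 RPKM for the cytosolic and 4.47 RPKM for the mitochondrial family. The 13 messenger RNAs that mitochondrial ribosomes translate all had a log2 fold change above 0, and their median was 0.28. Of these, edgeR called 0, with 5 (38.5%) at an unadjusted p under 0.05, beside 7.65% of all genes. DESeq2 called 1 and limma-voom 3 of the 13, beside 1.51% and 0.75% of all genes. ND1, a complex I subunit, had 4309, 5567 and 5544 CPM against 3608, 3759 and 3872 CPM (log2 fold change 0.46, SE 0.13, adjusted p = 0.268). All counts from the mitochondrial genome took 7.72%, 10.5% and 9.76% of the library totals on the high-fat diet against 8.13%, 8.46% and 8.39% on chow. For the 73 tested nuclear respiratory chain genes the median was 0.07 with 30 negative. Whether the families differed from each other was not tested.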

How the data were processed

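RNA from at least 50000 sorted satellite cells per replicate, with integrity numbers from 8.5 to 9.4, was depleted of ribosomal RNA and sequenced as 75-bp single reads, per the labels' protocols. The authors deposited raw counts of reads per Entrez gene ID, 1 file per library; the submitters' processing notes name Bowtie2, featureCounts, GRCm38 and mm10. Versions, strand setting and handling of multiply mapped reads are not given in the sources used here. IDs were matched to symbols through RefSeq (GRCm38.p6, 25275 IDs) and GENCODE M21 (17 more), and 1887 had none. Total counts ran from 14930394 to 18217818, so that 3 reads, the floor for a gene at 0, were 0.162 to 0.195 CPM. Floors and intervals cover counting error only.

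The tests ran under R 4.3.3 using edgeR 4.0.16: filterByExpr (minimum count 10), TMM scaling and the two-sided quasi-likelihood F test over 13202 genes, called at a Benjamini-Hochberg adjusted p under 0.05. The standard error was taken as |log2 fold change| over the root of F. DESeq2 1.42.0 and limma-voom 3.58.1 were alternatives, with 3 other scalings, 2 other filters, a threshold of 0.1, a replicate block, a gene length trend removed as an offset (lowess, span 0.3), the mitochondrial genome left out, and libraries left out. The test was checked on simulated counts. Lengths for RPKM are GENCODE M21 exons within RefSeq gene bounds, which can include rare exons. Members and lists were chosen with earlier results of these data known.

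Named members were the 12 with the smallest p, the 5 highest and 3 lowest per length, the Mrps18 paralogs, Mrpl12, Mrpl10, Mrps12, Mrpl45, Mrps36, and those not tested; partner genes were up to 3 per list by p (fewer for the mitochondrially encoded, cytosolic and respiratory chain lists), with Dap3, Tufm, Tfam and the ribosomal RNAs. Mrpl17, Mrpl16, Mrps11, Gabpa, Ppargc1a and overlapping genes were chosen after their values were seen. Exons of 26 members, cut to the RefSeq gene bounds, share bases with another annotated gene. Mrpl46 is not among these 26, although Mrps11 shares 173 bases with the uncut exons of Mrpl46. The 6 family pseudogenes in RefSeq were not analysed here.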

Additional observations from a re-analysis of the deposited data

How the results depend on the processing

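The number of members called was 0 in edgeR under every setting tried and in limma-voom, and 1 (Mrpl27) with DESeq2. Over all genes the count was 34, and it was 163 with no filter, 198 with DESeq2, 99 with limma-voom, from 9 to 44 with 1 library left out, and 1 without high-fat diet library 1 and chow library 3. The median log2 fold change of the members was 0.000126 with limma-voom and ran from -0.112 to 0.0184 with 1 library left out. With the replicate number as a replicate block, 0 members and 45 genes passed and the median was -0.04. Same-numbered libraries did not deviate together (correlations across genes of 0.0245, 0.0346 and -0.0261), so the numbers were not taken to pair samples. The share of counts taken by the members differed between the diets by -0.00319 percentage points without the mitochondrial genome, beside -0.00339. The ratio of large to small subunit counts differed by -0.218 by symbol and by -0.36 with Mrps30 and Mrps18a as large subunit.

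Of 441 values of the 26 named members under these settings, 412 kept their direction and stayed on the same side of the threshold, 28 changed sign and 1 passed (Mrpl27 with DESeq2, -4.82). The sign changes concerned 8 members, with main log2 fold changes from -0.52 (Mrpl35) to 0.56 (Mrps18c) and standard errors of 0.80 or more. They were 0.39 for Mrpl1, 1.58 for Mrpl15, -0.55 for Mrpl32, 0.56 for Mrpl35 and 0.12 for Mrpl52 with limma-voom. With the replicate block they were 0.20, 0.38, -0.33 and 0.14 for Mrpl1, Mrpl15, Mrpl32 and Mrpl52. Without high-fat diet library 1 and chow library 3 they were -0.0919 for Mrpl10, -0.67 for Mrpl32, 1.20 for Mrpl52, 0.39 for Mrps18b and -0.40 for Mrps18c. With 1 library left out, values ran from -1.44 to 0.68 for Mrpl1, -0.85 to 0.81 for Mrpl15, -0.83 to 0.52 for Mrpl32, -1.10 to 1.52 for Mrpl35, -0.61 to 0.89 for Mrpl52, -0.74 to 0.27 for Mrps18b and -0.0256 to 5.83 for Mrps18c. The cause was not tested. The mean levels of these 8 members over the 6 libraries ran from 1.83 CPM (Mrps18c) to 11.3 CPM (Mrpl32). Of the 72 tested members, 36 lay under 5 CPM.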

Other observations

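The mitochondrial aminoacyl-tRNA synthetases, which charge the transfer RNAs that mitochondrial ribosomes read, were tested for 16 of 17 genes. Of these 16, edgeR, DESeq2 and limma-voom each called 0, and 0 had an unadjusted p under 0.05 in edgeR, beside 7.65% of all genes. Negative log2 fold changes were found for 11 (68.8%, beside 50.5% of all genes), with a median of -0.45. The diets did not overlap for 1 gene (6.25%), beside 15.3% of all genes tested. Lars2, which charges leucine, stood at 3782, 5724 and 4677 CPM on the high-fat diet against 2967, 4199 and 4388 CPM on chow (log2 fold change 0.30, SE 0.17, adjusted p = 0.787). The median of the list was 7.31 CPM. The handling of multiply mapped reads is not given, and whether the reads counted for Lars2 come from its messenger RNA was not tested. Vars2, which charges valine, had 6.24, 2.62 and 3.67 CPM and 23.4, 5.65 and 3.68 CPM (adjusted p = 0.876), and Cars2, which charges cysteine, 0, 1.60 and 1.29 CPM and 2.20, 2.39 and 10.4 CPM (adjusted p = 0.899).

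Genes of mitochondrial transcription and RNA processing were tested for 11 of 12, with 0 called by edgeR, DESeq2 or limma-voom, 0 at an unadjusted p under 0.05, and a median log2 fold change of -0.33. Tfam, which packages mitochondrial DNA and starts its transcription, had 17.8, 14.5 and 16.2 CPM on the high-fat diet against 19.2, 19.7 and 27.7 CPM on chow, without overlap (adjusted p = 0.961). Trmt10c, a subunit of mitochondrial RNase P, had 76.0, 75.7 and 30.9 CPM and 118, 57.0 and 82.1 CPM (adjusted p = 0.890). Mtpap, the mitochondrial poly(A) polymerase, had 12.03, 21.1 and 14.3 CPM on the high-fat diet against 8.66, 10.6 and 9.70 CPM on chow, without overlap (adjusted p = 0.936). Over the list the diets did not overlap for 2 of 11 genes (18.2%), beside 15.3% of all genes tested.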
